A study of Equus caballus with 8 samples.

Results

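The genes described here are the ligands, receptors and binding proteins of the insulin-like growth factor (IGF) system in mesenchymal stem cells from equine bone marrow (BM-MSCs). They were chosen by gene symbol, and all 10 symbols (IGF1, IGF2, IGF1R, IGF2R, IGFBP2, IGFBP3, IGFBP4, IGFBP5, IGFBP6 and IGFBP7) had a row among the 15266 named genes of the table. BM-MSCs are plastic-adherent stromal cells, grown here from sternal marrow of Thoroughbred or Thoroughbred-cross horses with no genetic modification. Marrow of 4 horses, called D, J, L and W, was divided, and 1 portion was cultured untreated while the other received 1 ng/ml recombinant human transforming growth factor (TGF)-β2. Both portions grew in low-glucose medium with 10% fetal bovine serum and, by the study's methods, basic fibroblast growth factor. Cells were harvested at passage 3 or 4. The labels place the start of treatment at isolation, whereas the methods speak of 3 passages of treatment. Each horse thus gave 1 untreated and 1 treated library, 4 per group. Each library is 1 culture of primary cells, so that fewer cells of a type and less RNA per cell cannot be told apart.

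IGF1 and IGF2 are small secreted hormones related to insulin. They act through IGF1R, a receptor tyrosine kinase that drives growth and survival through the PI3K-AKT and MAPK pathways, whereas IGF2R carries IGF2 and lysosomal enzymes to the lysosome and so clears IGF2. In tissue fluid most IGF is held by the IGF binding proteins (IGFBPs), which block or prolong its action until proteases such as the pappalysin PAPPA cut them. IGF signalling stimulates tenocytes to divide and to make matrix, and marrow stromal cells are a known local source of IGFs and IGFBPs.

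Values are normalized counts, the reads of a gene over the size factor of its library. They were not divided by transcript length, so a gene was compared between libraries and not with other genes. Between 39184554 and 57228675 reads per library were counted on named genes. A count of 3 reads, used as the floor of detection, equals 2.02 to 3.60 normalized counts and covers counting error only. The stromal markers ITGB1, CD44, THY1, NT5E and ENG were all listed, with a summed level of 138766 to 309522 in untreated and 150975 to 250162 in treated libraries. THY1 was lower after treatment (log2 fold change -2.21, limma adjusted p = 0.0494), a call lost without horse D, L or W (adjusted p = 0.213, 0.148 and 0.0888). Of 6 haematopoietic markers 4 were listed, summing to 498.6 to 2602 normalized counts in untreated and 388 to 714 in treated libraries, with PTPRC at 44.8 ± 46.3 and 8.65 ± 9.88 (SD, n = 4). The 4 smooth muscle markers MYH11, DES, CNN1 and ACTA2 summed to 33086 to 173023 in untreated and 209054 to 573867 in treated libraries. DES, CNN1 and ACTA2 were called higher, although the call of DES was lost without horse W (adjusted p = 0.0517 from limma), that of CNN1 without D or W (0.0925 and 0.0653) and that of ACTA2 without D or L (0.112 and 0.0757). Of 5 endothelial markers 2 were listed, summing to 7.10 to 26.3 and 30.0 to 55.7, and KDR was called higher (log2 fold change 2.27, adjusted p = 0.0362 from limma), a call lost without D, L or W (0.137, 0.127 and 0.133). Of 4 adipocyte markers only ADIPOQ was listed, at 4.71 to 25.2 and 45.7 to 167, and it was called higher (log2 fold change 3.12, adjusted p = 0.00860 from limma), a call that held without any single horse (0.0271 to 0.0479). SP7 and IBSP, the listed 2 of 4 osteoblast markers, summed to 1065 to 4972 and 261 to 12833, and ACAN and SOX9, 2 of 4 chondrocyte markers, to 277 to 1075 and 1074 to 1454. SOX9 was called higher (log2 fold change 1.21, adjusted p = 0.0332 from limma), a call lost without D, where the log2 fold change was 0.96, and without J or W (adjusted p = 0.0903 and 0.126). Of 4 skeletal muscle markers only DES was listed, at 0.870 to 7.54 and 22.5 to 222. When limma was fitted with the horse as a block, THY1 stayed lower (adjusted p = 0.00203). DES, CNN1 and ACTA2 stayed higher in that fit (adjusted p = 0.00531, 0.00280 and 0.00269), as did KDR, ADIPOQ and SOX9 (0.0109, 0.0133 and 0.0175). In the untreated libraries of D and W, DES (0.870 and 3.04 normalized counts) and KDR (2.61 and 1.01) were at or under the floor of 3 reads. The part of these cell types in the results below was not tested.

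Treated and untreated libraries were compared by limma on log2(normalized count + 1) across all genes that reached 10 normalized counts in 4 or more of the 8 libraries. Fold changes on this scale understate the change of genes with few reads. This limma fit, also when a horse was left out, had no term for the horse, so differences between horses stayed in its intervals. With the horse as a block, the standard error of IGF2 went from 0.44 to 0.14 and that of IGFBP2 from 0.50 to 0.14. A gene was called when its Benjamini-Hochberg adjusted p was under 0.05 and its absolute log2 fold change over 1. All 10 IGF genes were tested. IGFBP5 was called higher and IGF2 and IGFBP4 lower, 3 of 10, where 11.5% of the 14907 genes tested were called in either direction, 5.59% higher and 5.87% lower. The median absolute log2 fold change was 1.09 for the 10 genes and 0.35 for all genes tested. The first of these counts IGF1 and IGFBP3, which had few reads in some libraries and were not called. With the sign kept, the medians were -0.03 and 0.01. The remaining 7 genes, among them both receptors, were not called.

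**Figure D1:**
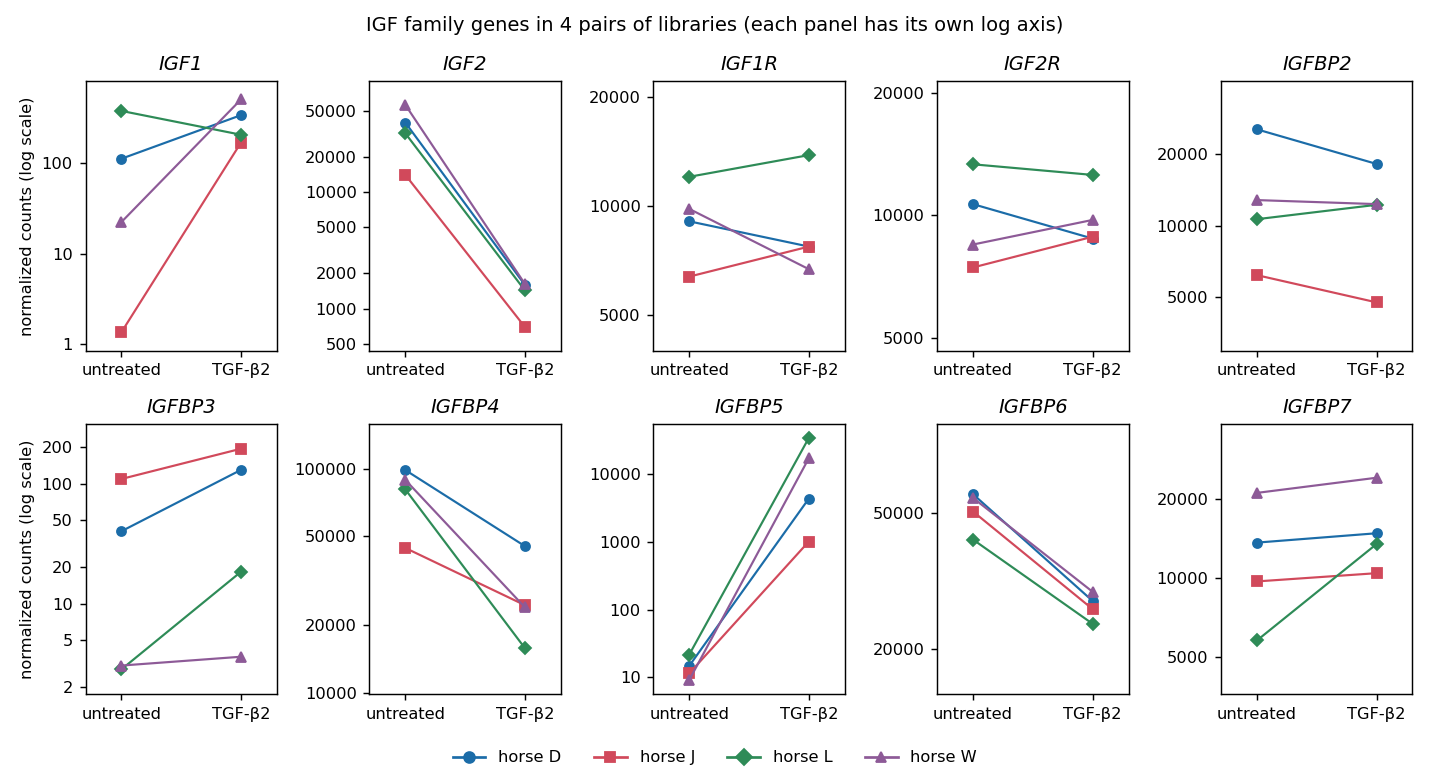
Normalized counts of the 10 IGF genes (log scale, a separate axis for each panel) in the untreated and the TGF-β2-treated library of each horse, joined by a line per horse. All lines of IGF2, IGFBP4 and IGFBP6 fall and all lines of IGFBP5 rise, whereas IGF1 falls in horse L and rises in the other 3 horses.

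IGF2, the ligand cleared by IGF2R, was sharply lower in treated BM-MSCs. The untreated libraries of horses D, J, L and W held 39538, 14063, 31980 and 56138 normalized counts of IGF2. The treated libraries held 1596, 695, 1432 and 1628. Every treated library lay below every untreated one, a separation of groups seen in 27.8% of the genes tested. The mean was 35429.9 ± 17456 without and 1338 ± 437 with TGF-β2 (SD, n = 4), a 26.5-fold difference of the means. On the log2 scale IGF2 differed by -4.64 (standard error 0.44, adjusted p = 7.47e-04 from limma). The log2 change of single horses ran from -4.34 in J to -5.11 in W. The call held without any single horse, with adjusted p from 3.44e-04 to 0.0156. Ordered from the largest decrease, the log2 fold change of IGF2 ranked 59 among the 14907 genes tested.

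IGF1, the ligand best known as the mediator of growth hormone, had few reads and differed between horses. Untreated libraries held 112 (D), 1.35 (J), 379.7 (L) and 22.3 (W) normalized counts of IGF1. Treated libraries held 341, 169, 207 and 508. The untreated levels spanned a 282-fold range and the treated ones a 3.00-fold range, and the groups overlapped because the untreated library of horse L exceeded 3 of the 4 treated ones. The untreated library of horse J held 2 reads against 158 in its treated library. The ratio in horse J was 126, with an exact 95% counting interval of 34.2 to 1046. The mean log2 fold change of IGF1 was 2.84, with a 95% interval of -0.32 to 5.997 and an adjusted p of 0.176 from limma, and it was not called. The mean levels, 129 and 306 normalized counts, differed 2.38-fold, and DESeq2 and edgeR without a term for the horse gave smaller log2 fold changes of 1.25 each (adjusted p = 0.406 and 0.469). Without horse J it was 1.72 (adjusted p = 0.235) and without horse L 4.07 (adjusted p = 0.0987). With the horse as a block, limma gave an adjusted p of 0.115 and edgeR's quasi-likelihood test 0.184, whereas DESeq2's Wald test called IGF1 higher (log2 fold change 3.00, adjusted p = 0.0399), along with 15.7% of all genes in either direction.

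Added together, the ligands followed IGF2. The IGF1 and IGF2 signal summed to 14064 to 56161 normalized counts in untreated and 864 to 2136 in treated libraries. IGF1 made up 0.283% (D), 0.00957% (J), 1.17% (L) and 0.0397% (W) of the ligand signal in untreated cells. In treated cells its share was 17.6%, 19.6%, 12.6% and 23.8%. In horse L the share of IGF1 rose although IGF1 itself was lower, the ligand sum having dropped by 30720 normalized counts. These sums and shares describe reads, were not divided by transcript length, and were not tested.

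**Figure D2:**
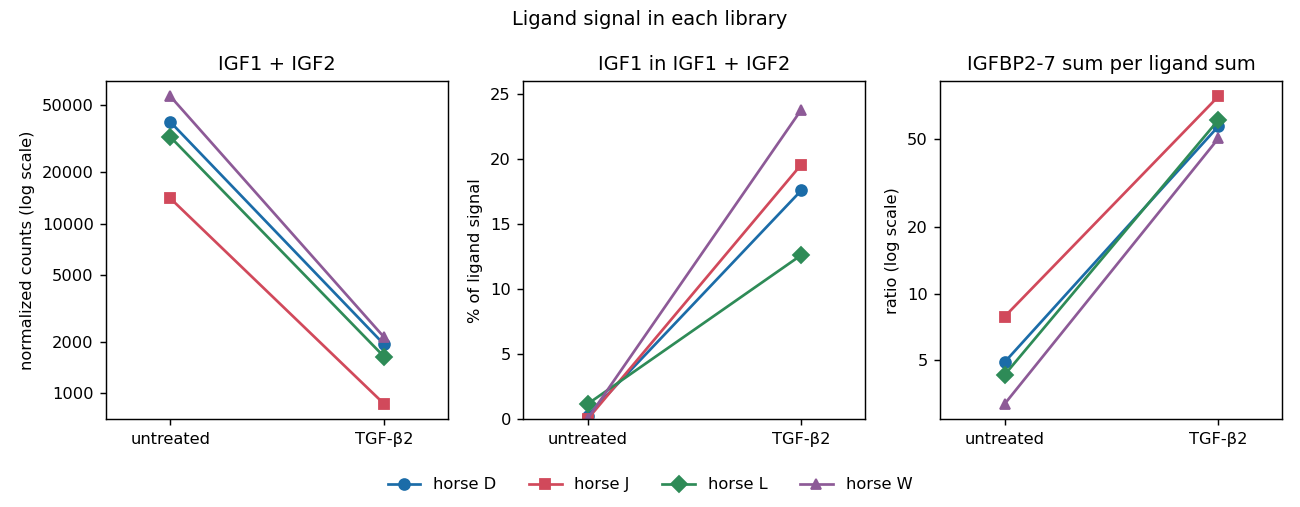
Summed IGF1 and IGF2 signal in normalized counts (log scale), the percentage of it that is IGF1, and the IGFBP2 to IGFBP7 sum divided by the ligand sum (log scale), for the untreated and TGF-β2-treated library of each horse, with 1 line per horse. The ligand sum falls in all 4 horses, while the IGF1 share and the ratio of binding proteins to ligands rise in all 4.

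Neither receptor gene was called. IGF1R, the signalling receptor, held 9077, 6391, 12037 and 9822 normalized counts in the untreated libraries of horses D, J, L and W. Its treated libraries held 7734, 7731, 13813 and 6701. IGF1R was lower after treatment in D and W and higher in J and L. The log2 fold change was -0.08, with a 95% interval of -0.68 to 0.52 and an adjusted p of 0.866 from limma. IGF2R, the clearance receptor, held 10655, 7455, 13343 and 8485 normalized counts in untreated libraries. It held 8774, 8865, 12566 and 9748 in treated ones. IGF2R had a log2 fold change of 0.02, which turned to -0.29 when libraries were scaled to equal totals, and its 95% interval of -0.44 to 0.48 covers changes in either direction. The adjusted p of IGF2R from limma was 0.955. Horse L had the highest level of both receptors in both conditions.

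**Figure D3:**
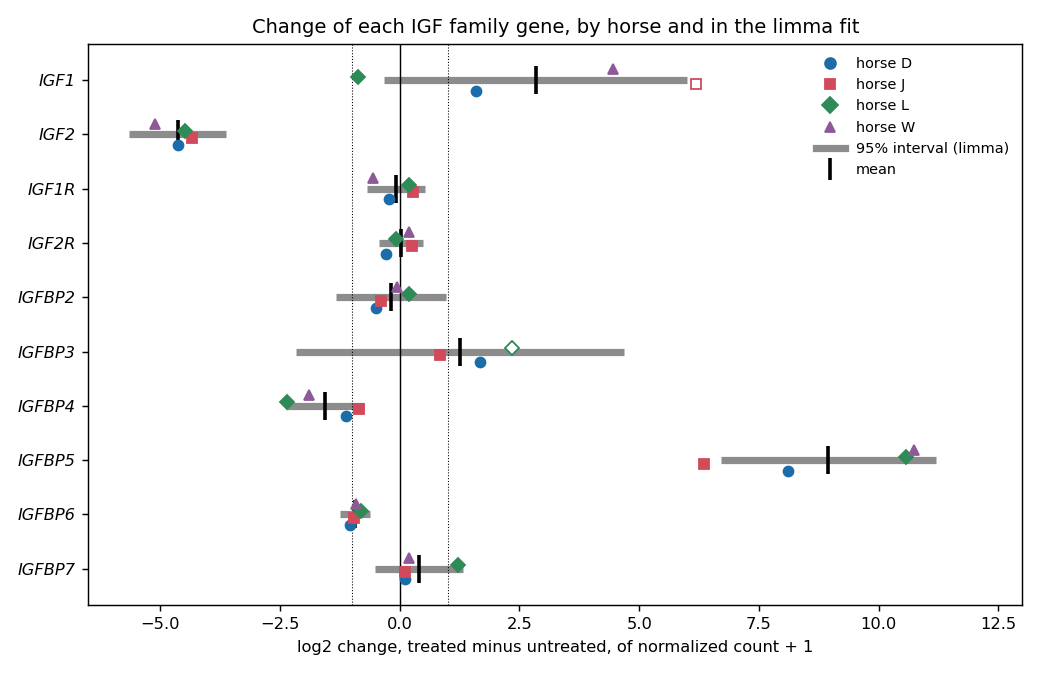
Log2 change (treated minus untreated, normalized count + 1) of each IGF gene in each horse (coloured symbols), with the limma mean (black tick) and its 95% interval (grey bar). Open symbols mark a pair with 3 or fewer reads in 1 library, horse W is left out for IGFBP3 because both libraries held 3 reads, and dotted lines mark the fold change threshold.

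IGFBP5, a binding protein that attaches to extracellular matrix, had few reads in untreated cells and many in treated ones. The untreated libraries of horses D, J, L and W held 17, 17, 23 and 9 reads of IGFBP5. The treated libraries held 3675, 951, 29978 and 14398 reads. In normalized counts the treated libraries stood at 4377, 1018, 34463 and 17298, a 33.9-fold range, beside a 2.37-fold range without treatment. Horse J thus had the smallest and horse L the largest level after treatment. The log2 change was 8.12 in D, 6.36 in J, 10.57 in L and 10.74 in W. The adjusted p from limma was 0.00124, and 0.00109 to 0.0208 without any single horse.

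IGFBP4, a binding protein that mainly inhibits IGF action and is the best known substrate of PAPPA, was lower in all 4 horses. Untreated libraries held 98501 (D), 44298 (J), 80804 (L) and 89063 (W) normalized counts of IGFBP4. Treated libraries held 45144, 24637, 15861 and 24110. The groups overlapped at 1 point, where the treated library of horse D exceeded the untreated library of horse J. The log2 change was -1.13 in D, -0.85 in J, -2.35 in L and -1.89 in W. Over the 4 horses the log2 fold change was -1.55 (standard error 0.36, adjusted p = 0.0174 from limma). The call was lost without horse L (log2 fold change -1.29, adjusted p = 0.0818) and without horse W (-1.44, adjusted p = 0.113). It held without D or J (adjusted p = 0.0395 and 0.0177). L and W, the horses with the largest falls of IGFBP4, were also those with the largest gains of IGFBP5, and J had the smallest change of both, a description of 4 horses that was not tested.

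IGFBP6, which binds IGF2 in preference to IGF1, was lower by nearly the same factor in each horse. Untreated libraries held 56595, 50401, 41756 and 55212 normalized counts in D, J, L and W. Treated libraries held 27663, 26188, 23730 and 29415. The highest treated library was below the lowest untreated one. The log2 change of IGFBP6 was -1.03, -0.94, -0.82 and -0.91. With a log2 fold change of -0.93 (95% interval -1.24 to -0.61, adjusted p = 0.00331 from limma) IGFBP6 passed the p threshold and just missed the fold threshold. It was called when libraries were scaled to equal totals (log2 fold change -1.24, adjusted p = 0.00149 from limma).

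IGFBP2 and IGFBP7 differed more between horses than between treatments. IGFBP2, a binding protein that can attach to cell surface integrins, held 25512, 6179, 10650 and 12823 normalized counts in the untreated libraries of D, J, L and W. Its treated libraries held 18224, 4742, 12249 and 12331. In both conditions D was the highest and J the lowest. The log2 fold change of IGFBP2 was -0.18, with a 95% interval of -1.33 to 0.97 and an adjusted p of 0.834 from limma. Blocking on the horse, the interval narrowed to -0.52 to 0.16 and the adjusted p was 0.356. IGFBP7, a distant relative with low affinity for IGFs, held 13673, 9723, 5790 and 21162 normalized counts in untreated libraries. It held 14843, 10452, 13502 and 24175 in treated ones. IGFBP7 was higher in all 4 horses, a direction shared by all horses in 51.9% of the genes tested (either direction), but by 0.10 to 0.19 on the log2 scale in J, D and W against 1.22 in L. The log2 fold change was 0.41 (95% interval -0.51 to 1.33, adjusted p = 0.510 from limma), and 0.14 without horse L (adjusted p = 0.860).

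IGFBP3, the main carrier of IGFs in blood, was scarce and split the horses. The untreated libraries of D and J held 46 and 162 reads of IGFBP3, and those of L and W held 3 reads each. The treated libraries of D, J, L and W held 109, 182, 16 and 3 reads. D and J were therefore above L and W in both conditions, and no change could be measured in W. In L the ratio of treated to untreated was 6.51, with an exact 95% counting interval of 1.86 to 34.8. In normalized counts D changed from 40.0 to 129.8 and J from 109 to 195. The log2 fold change of IGFBP3 was 1.26, with a 95% interval of -2.16 to 4.68 and an adjusted p of 0.591 from limma. Blocking on the horse, the interval was 0.24 to 2.27 and the adjusted p 0.0666. DESeq2 and edgeR with the horse as a block called IGFBP3 higher (log2 fold changes 1.39 and 1.38, adjusted p = 0.00934 and 0.0443), where edgeR with the block called 13.8% of all genes, and without the block neither did (adjusted p = 0.528 and 0.575).

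The summed signal of the 6 binding-protein genes was lower after treatment in each horse. It was 194337 normalized counts in D, 110720 in J, 139024 in L and 178273 in W without treatment. With TGF-β2 it was 110381, 67232, 99824 and 107332. The highest treated sum, in D, lay just below the lowest untreated sum, in J, so the groups were separate by a small margin. The log2 ratio was -0.82 in D, -0.72 in J, -0.48 in L and -0.73 in W, a mean of -0.69 ± 0.15 (SD, n = 4 horses). When libraries were scaled to equal totals the mean was -0.9985. Leaving IGFBP5 out of the sum, the mean log2 ratio was -0.92 and L, at -1.09, had the most negative ratio. By plan the sum was given per library and was not tested.

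**Figure D4:**
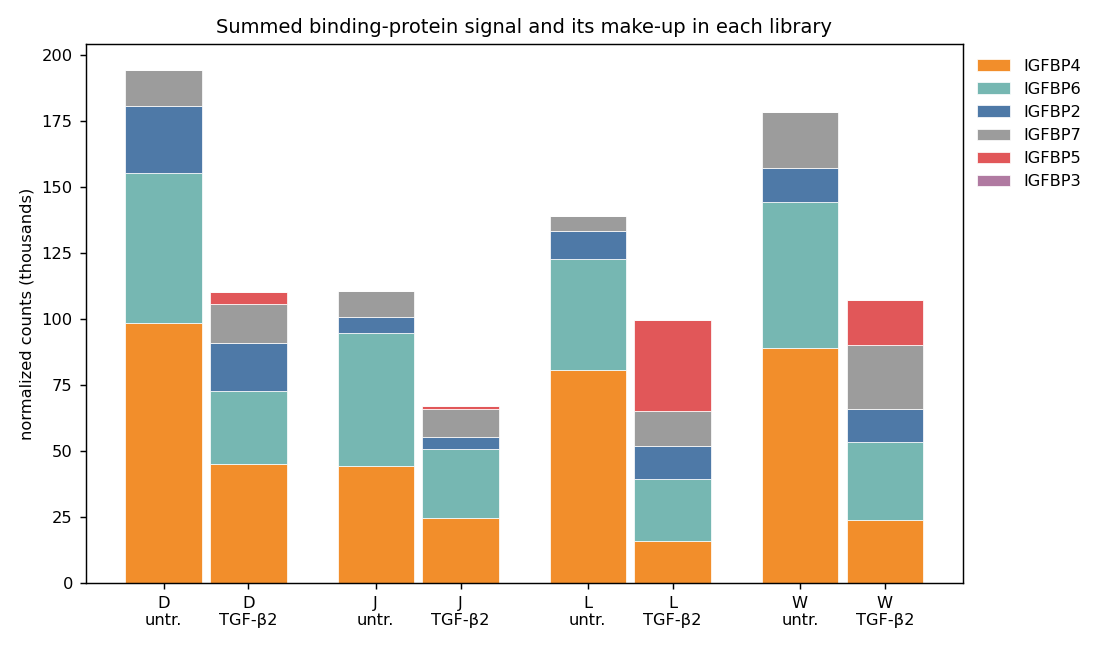
Stacked normalized counts (divided by the factor given on the axis) of the binding-protein genes in the untreated and TGF-β2-treated library of each horse. Every treated bar is shorter than its untreated partner, the IGFBP4 and IGFBP6 segments shrink in all 4 horses, and the IGFBP5 segment is visible only after treatment, from 1.51% of the bar in horse J to 34.5% in horse L. IGFBP3, at no more than 0.290% of a bar, is too thin to see.

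The make-up of this signal changed as well. IGFBP4 and IGFBP6 together took 79.8% to 88.2% of the binding-protein reads in untreated libraries. In treated ones they took 66.0% in D, 75.6% in J, 39.7% in L and 49.9% in W. IGFBP4 alone went from 50.7% to 40.9% in D, from 40.0% to 36.6% in J, from 58.1% to 15.9% in L and from 49.96% to 22.5% in W. The share of IGFBP6 changed less, from a range of 29.1% to 45.5% to one of 23.8% to 38.95%. The share of IGFBP5 went from at most 0.0156% to 3.97% in D, 1.51% in J, 34.5% in L and 16.1% in W. IGFBP7 took 4.16% to 11.9% without treatment and 13.4% to 22.5% with it, and IGFBP2 took 5.58% to 13.1% and 7.05% to 16.5%. IGFBP7 and IGFBP2 gained share in all 4 horses although neither gene was called.

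The gain of IGFBP5 offset part of the lost signal, to a degree that differed between horses. In L the sum of IGFBP4 and IGFBP6 dropped by 82968 normalized counts and IGFBP5 gained 34441. In W that sum dropped by 90750 and IGFBP5 gained 17289. In D and J it dropped by 82290 and dropped by 43873, and IGFBP5 gained 4362 and 1007. The ligand signal differed more than the binding-protein signal, with a mean log2 ratio of -4.35 ± 0.28 (SD, n = 4 horses). The ratio of binding-protein to ligand reads therefore went from 3.17 to 7.87 in untreated libraries to 50.2 to 77.8 in treated ones. This ratio is one of reads, not of molecules or protein.

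Other genes of IGF signalling were taken from a list of 58 symbols, of which 48 had a row and all 48 were tested. Of these 5 (10.4%) were called, 4 higher and 1 lower, close to the 11.5% of all genes. The median log2 fold change of the list was -0.05, and 0.01 for all genes. When libraries were scaled to equal totals, which moved the median of all genes to -0.30, 4 were higher and 7 lower (14.3% of all genes were called). With 1 horse left out, the number called was 2 without D, 8 without J, 5 without L and 1 without W.

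Among 7 proteases that cut binding proteins 2 were called higher, where 5.59% of all genes were. This group and those below are small, and the list was chosen with earlier results of these data known. PAPPA, the pappalysin that cuts IGFBP4 and IGFBP5, held 939, 796, 833 and 599.6 normalized counts in the untreated libraries of D, J, L and W. Its treated libraries held 2012, 7703, 2982 and 6755. All treated libraries were above all untreated ones, with a log2 fold change of 2.43 (adjusted p = 0.00597 from limma). The call was lost without horse W (adjusted p = 0.0528). ADAM12, a membrane metalloproteinase reported to cut IGFBP3 and IGFBP5, held 1902, 606, 5323 and 2564 normalized counts in untreated and 14098, 18826, 16120 and 21553 in treated libraries. The log2 fold change of ADAM12 was 3.13 (adjusted p = 0.00711 from limma), and the call was lost without D (adjusted p = 0.0586) or W (0.0555).

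Stanniocalcins bind and inhibit PAPPA, and 1 of the 2 genes was called higher, where 5.59% of all genes were. STC2 held 749, 1159, 3296 and 1469 normalized counts in the untreated libraries of D, J, L and W. In treated libraries it held 17797, 7587, 30615 and 41762. The groups were separate, with a log2 fold change of 3.83 (adjusted p = 0.00412 from limma), and the call held without any single horse (adjusted p 0.00504 to 0.0412). The protease PAPPA and its inhibitor were thus both higher in treated cells of all 4 horses. The other gene, STC1, had a log2 fold change of -0.08 (adjusted p = 0.916 from limma).

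Beside the receptor, 1 of 11 adaptors and brakes was called, where 11.5% of all genes were called in either direction. SOCS3, a suppressor of cytokine signalling that also binds the insulin and IGF receptors, fell from 7456, 8940, 4825 and 6714 normalized counts to 2288, 3407, 1134 and 1452 in D, J, L and W. Its log2 fold change was -1.85 (adjusted p = 0.00789 from limma), and the call was lost without D (adjusted p = 0.0598) or W (0.0669). In the PI3K-AKT-mTOR relay 1 of 21 genes (4.76%) was called, against the same 11.5%. EIF4EBP1, a repressor of translation that mTOR inactivates, held 1191, 1648, 5297 and 1934 normalized counts in untreated and 5940, 4616, 7537 and 7274 in treated libraries. The groups of EIF4EBP1 overlapped, because the untreated library of L was high, and the log2 fold change was 1.56 (adjusted p = 0.0314 from limma). The call of EIF4EBP1 was lost without D (adjusted p = 0.145), J (0.0641) or W (0.164). None of the related receptors, IGF2 mRNA-binding proteins and STAT5 genes of the list was called. With the horse as a block 6 genes of the list were called, where 14.1% of all genes were. The added gene was ESM1, a secreted proteoglycan with an IGFBP-like domain, with a log2 fold change of -1.69 (adjusted p = 0.204 from limma without the block and 0.0233 with it).

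**Figure D5:**
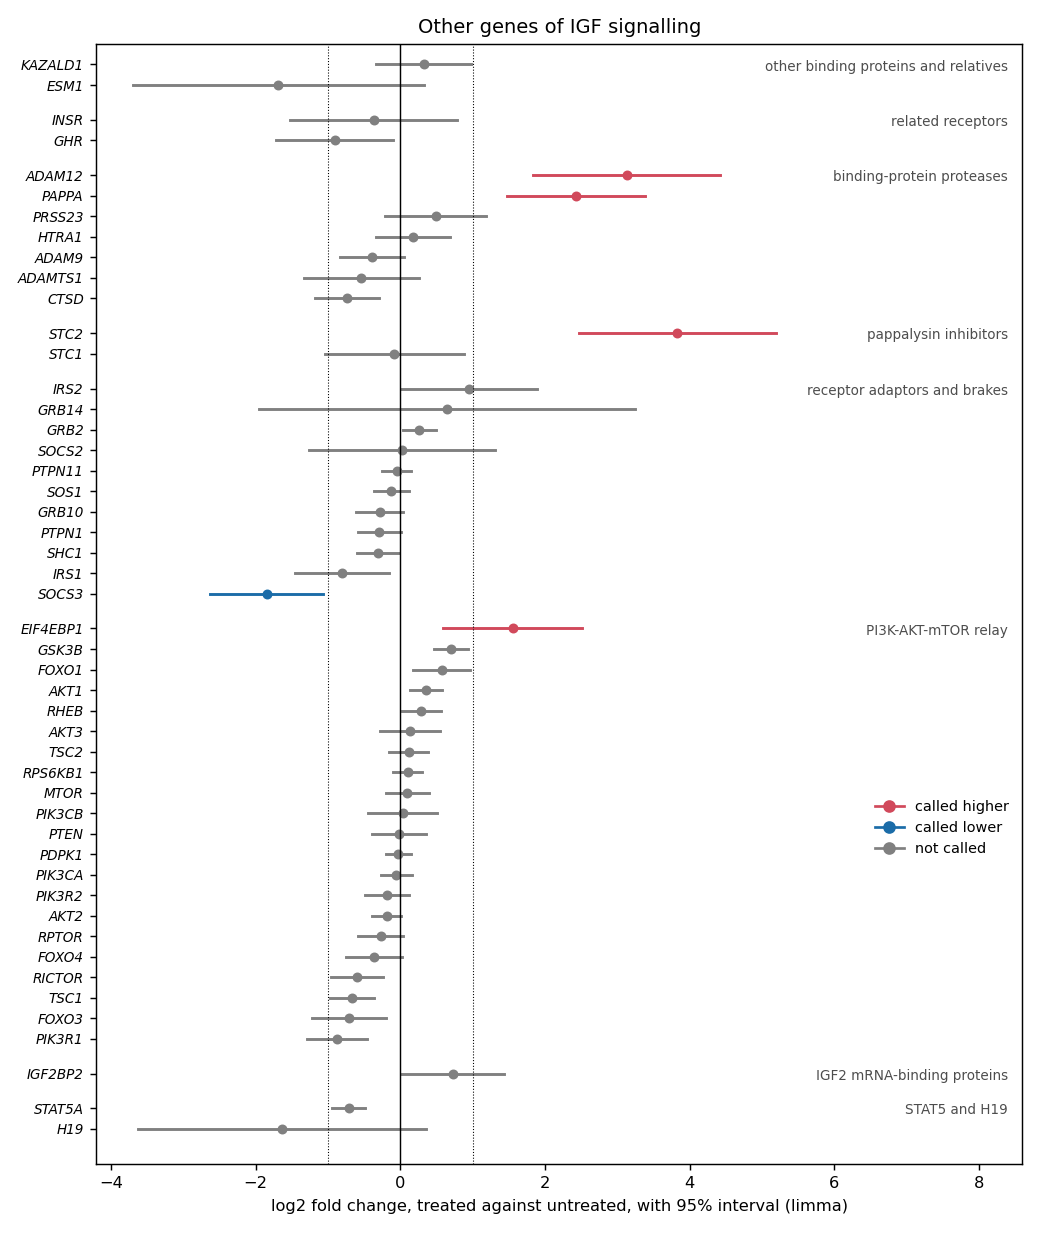
Log2 fold change of 48 other genes of IGF signalling, grouped by role, with the 95% interval from limma; red marks genes called higher, blue lower and grey not called. Red points are ADAM12, PAPPA, STC2 and EIF4EBP1 and the blue point is SOCS3, while most of the relay lies within the dotted lines at the fold change threshold.

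A further 8 genes of the list passed the p threshold with smaller changes and are named after their values were seen. Together 13 of 48 passed an adjusted p under 0.05, where 22.8% of all genes did. GSK3B, AKT1 and FOXO1 of the AKT branch were higher, with log2 fold changes of 0.70, 0.36 and 0.57 (adjusted p = 0.00294, 0.0344 and 0.0433 from limma). PIK3R1, the regulatory subunit of PI3K, was lower by a log2 fold change of -0.87 (adjusted p = 0.0122 from limma). TSC1 and RICTOR, which act on the mTOR complexes, had log2 fold changes of -0.67 and -0.59 (adjusted p = 0.0102 and 0.0296 from limma). STAT5A, a transcription factor of growth hormone signalling, had one of -0.71 (adjusted p = 0.00277 from limma). CTSD, a lysosomal protease, had one of -0.73 (adjusted p = 0.0291 from limma). GSK3B and STAT5A stayed under the p threshold without any single horse (adjusted p up to 0.0439 and 0.0381). The other 6 did not, with the largest adjusted p at 0.171 for CTSD without D, 0.155 for FOXO1 without D, 0.147 for RICTOR without W, 0.130 for AKT1 without W, 0.0905 for TSC1 without D and 0.0900 for PIK3R1 without W. Leaving out other horses also lost the threshold for CTSD (L and W), FOXO1 (J and W), RICTOR (D), AKT1 (D, J and L), TSC1 (W) and PIK3R1 (D and L). When blocked by horse, FOXO1 had an adjusted p of 0.0506 from limma and the other 7 genes passed.

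Genes with the most similar pattern were found by the root mean square distance between log2 changes in the 4 horses. Nearest to IGF2 were XG, ABI3BP and CITED4, at distances of 0.13, 0.29 and 0.31. All 3 were called lower, which follows largely from picking genes with changes close to those of IGF2. Nearest to IGFBP4 were PAQR8, RHBDL2 and LOC111767462, at 0.20, 0.24 and 0.25. IGFBP5 had no close neighbour, with RELN at 1.204, INHBE at 2.15 and ANKRD1 at 2.26. The log2 fold change of IGFBP5, 8.94, ranked 1 from the largest increase. Distances were not scaled by the size of the change, so few genes could lie close to IGFBP5. IGF1 had ZNF853 at 1.28, MEGF10 at 1.29 and ADAM22 at 1.33. ZNF853, MEGF10 and ADAM22 rose least in horse L and most in J, which follows largely from picking genes with changes close to those of IGF1. In L their log2 changes were 0.36, 0.73 and 0.51, whereas that of IGF1 was -0.87. The value of IGF1 in J rests on 2 untreated reads.

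In the RefSeq gene order of the horse assembly TB-T2T, used for neighbours only, IGFBP2 and IGFBP5 lie side by side with 0 protein-coding genes between them. Of this pair, IGFBP5 was called and IGFBP2 was not. The non-coding RNA H19, imprinted together with IGF2 in mammals, lies near IGF2 with 1 listed gene between them. H19 held 13.1, 24.2, 30.2 and 176 normalized counts in the untreated libraries of D, J, L and W. The treated libraries held 2.38, 18.2, 16.1 and 18.0. H19 was lower in all 4 horses but not called, with a log2 fold change of -1.63, a 95% interval of -3.62 to 0.36 and adjusted p = 0.214 from limma (0.0618 when blocked by horse). With the horse as a block, DESeq2 called H19 lower (adjusted p = 0.0247) and edgeR did not (0.0778). That DESeq2 fit called 15.7% of all genes in either direction. The treated library of D was under the floor of 3 reads. MRPL23, the only protein-coding gene adjacent to IGF2 that was tested, averaged 840.0 normalized counts without and 888 with treatment and was not called (log2 fold change 0.10, adjusted p = 0.704 from limma). Among the nearest protein-coding genes examined around each member, CCR7 near IGFBP4 and FAM169B near IGF1R were called lower. Of all genes tested, 11.5% were called in either direction, and a link between neighbours and members was not tested. CCR7 averaged 21.9 normalized counts without and 2.01 with treatment (log2 fold change -3.13, adjusted p = 0.00726 from limma). Its treated mean was under the floor of 3 reads, 3.21 to 3.60 normalized counts in treated libraries, so the size of this change is not well measured. FAM169B averaged 44.2 and 16.5 (log2 fold change -1.49, adjusted p = 0.0326 from limma). The other tested ones, IGFBP5 aside, were not called. STC1, H19 and these neighbours were named after their values were seen.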

How the data were processed

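RNA-sequencing was analysed for paired untreated and TGF-β2-treated BM-MSCs of 4 horses. Per the labels and methods, the authors trimmed the reads with Trimmomatic 0.36, mapped them to EquCab 3.0 with STAR 2.5.2b, counted unique hits per gene with featureCounts (Subread 1.5.2) and normalized with DESeq2. The gene annotation and strand setting are not given in the sources used here. The deposited values are normalized counts, a signal of gene counts divided by 1 size factor per library. Each value was a whole multiple of a step per library (100% within 0.01 read), which gave back the reads. A row with no gene name, 0.0281% to 0.0531% of the signal, was left out.

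Groups were compared with limma 3.58.1 (trend, pseudocount 1, no term for the horse) in R 4.3.3. Calls required an adjusted p below 0.05 together with a log2 fold change beyond 1 in either direction, among genes reaching 10 normalized counts in 4 libraries. DESeq2 1.42.0 and edgeR 4.0.16 on the recovered reads, a block for the horse, other pseudocounts, filters, scalings and thresholds and leaving out each horse were alternatives. Same-horse libraries deviated from their group means together (correlation across genes 0.386 to 0.609), and the pairing comes from the horse named in the sample titles. By the rule for naming, the genes named were the 10 members, genes of the pathway list called with or without the block, and the 3 genes with per-horse changes nearest to each called member and to IGF1. Marker genes were named from their lists. STC1, H19, MRPL23, CCR7, FAM169B and 8 pathway genes with small changes were named beyond the rule, after their values were seen. Members and lists were chosen with earlier results of these data known. Replicates are single cultures of separate horses. Procedures were tested on simulated data. RefSeq supplied gene order for all 10 members. Transcript lengths and sequences were not analysed here.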

Additional observations from a re-analysis of the deposited data

Results flagged for a closer look

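IGF1R in treated cells had 1 library apart from the rest. Horse L stood at 13813 normalized counts, and the gap to the next library was 0.855 of the range of the 4, above the critical value of Dixon's test for 4 samples. A total of 22 groups of 4 libraries were examined, the 10 genes and their binding-protein sum in each condition, and chance flags about 1 in 20. Without horse L the log2 fold change of IGF1R was -0.17 (adjusted p = 0.598 from limma).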

How the results depend on the processing

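Each member was refitted under 19 alternatives (18 for IGFBP3, which a filter at 50 normalized counts removed). IGF2 and IGFBP5 were called in all 19, with log2 fold changes from -4.95 to -4.48 and from 8.35 to 9.97. The number of members called was 3 to 4 with all horses, apart from 2 at an adjusted p under 0.01 and 5 with DESeq2 and the replicate block, which added IGF1 and IGFBP3. Leaving out a horse gave 2 or 3. The replicate block in limma called 3 members and changed no member's call. IGFBP4 was lost at an adjusted p under 0.01. The log2 fold change of IGF1R ran from -0.19 to 0.081 with a horse left out (its sign turned without W) and was -0.39 after total scaling, and that of IGF2R from -0.056 to 0.12 (its sign turned without J and without W) and to -0.29 after total scaling. The causes were not tested.

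For the pathway list, total scaling gave 11 calls and no fold change threshold 13, against 1 to 8 with a horse left out (1 without W, 2 without D, 8 without J). For all genes, 1709 were called, 885 at an adjusted p under 0.01, 3403 with no fold change threshold and 718 to 1899 with a horse left out (718 without D, 795 without W). After total scaling 27.6% of calls were higher against 48.8%. The mean log2 ratio of the binding-protein sum was -0.9985 after total scaling and -0.76 to -0.64 with a horse left out. For IGFBP3 in horse W, with 3 reads in each library, no change was detectable at this depth.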
